A study of Mus musculus with 8 samples.

Results

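The 5 simple epithelial keratins Krt7, Krt8, Krt18, Krt19 and Krt20 did not move together between cancers of the gastric squamous-columnar junction (SCJ) and the same region of control stomachs. In mean FPKM Krt7 was 12.7 times higher in the cancers, whereas Krt8 was 3.22 times lower. The Krt8 difference passed the test narrowly and was lost in 8 of 17 alternative settings. Krt18, Krt19 and Krt20 had lower means in the cancers but did not pass the test. These 5 genes were taken by symbol from the 23361 genes of the expression table, and all 5 were found and had values high enough to be tested. The SCJ is the border between the squamous lining of the forestomach and the glandular lining of the rest of the mouse stomach.

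Keratins form the intermediate filaments of epithelial cells. A filament is built from pairs of 1 type II and 1 type I keratin, so that a keratin without a partner of the other type is unstable. Krt7 and Krt8 belong to type II, and Krt18, Krt19 and Krt20 to type I. Krt8 and Krt18 form the basic pair of single-layered epithelia, Krt19 is common in glands and ducts, Krt7 is best known from ducts and transitional epithelia, and Krt20 from differentiated cells of the gastric and intestinal surface. Stratified squamous epithelium uses other pairs, among them Krt5 with Krt14 in its basal layer, Krt4 with Krt13 in mucosae and Krt1 with Krt10 in cornified epithelium.

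RNA was sequenced from 5 cancers and from the SCJ of 3 wild type stomachs. The cancers, of genotype Trp53-/-Rb1-/-, arose in Lgr5eGFP-Ires-CreERT2 Trp53loxP/loxP Rb1loxP/loxP Ai9 mice long after tamoxifen, which activates a Cre recombinase made only in cells that express the stem cell gene Lgr5. Ai9 is a tdTomato reporter, which was also used to mark the borders of the tumors. Control mice were age-paired and are described as wild type, so that deletion of both genes, the transgenes and tamoxifen cannot be told apart. No label says that each sample came from a separate animal, and p-values measure the spread between these samples.

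Expression is given as FPKM, a fragment count scaled by transcript length and by the mapped fragments of the library, rounded to whole numbers. The depth of the libraries is unknown. FPKM summed to between 403569 and 573858 in the cancers and between 887141 and 992550 in the controls, where the 10 most abundant genes took 39.3% to 44.3% of the sum against 11.1% to 19.6% in the cancers. Rb1 stood between 4 and 6 FPKM in the cancers and between 9 and 10 in the controls, and Trp53 between 12 and 30 against 16 to 19, so that Trp53 did not separate the labelled groups. Values were per gene, and the floxed exons alone cannot be read from them. The controls held both linings of the SCJ, with FPKM of 5 markers of gastric pit cells summing to between 146698 and 214514 and of 11 squamous and basal keratins to between 3688 and 6247. A pair of genes, Chia and Pgc, were listed at 0 in 1 or more controls and at 1000 or more in another, so that a 0 in this table may not mean absence. In these bulk samples fewer cells of a type and less RNA per cell cannot be told apart.

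The type II keratin Krt7 (chromosome 15, 101412403 to 101427806, mm10, plus strand) had FPKM of 337, 496, 379, 291 and 442 in cancers 1 to 5 and of 23, 36 and 33 in controls 1 to 3. The groups did not overlap, and the cancers were narrowly spread, the highest being 1.70 times the lowest. The mean was 389 ± 81.6 FPKM (SD, n = 5) in the cancers and 30.7 ± 6.81 FPKM (SD, n = 3) in the controls. The difference was 3.62 on the log2(FPKM + 1) scale (standard error 0.23, adjusted p = 0.00033 from limma), and each of the 5 cancers exceeded the highest control (exact permutation test, two-sided, p = 0.018, which is the minimum for 5 samples against 3). Krt7 had the 121st largest rise of the 14357 genes tested. Within a library it ranked between place 150 and 283 by FPKM in the cancers and between place 2315 and 3601 in the controls. Krt7 was a minor keratin of the normal SCJ and an abundant transcript of each of the 5 cancers.

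The other type II member, Krt8 (chromosome 15, 101996711 to 102004342, minus strand), had FPKM of 207, 1681, 372, 960 and 557 in cancers 1 to 5 and of 3108, 2075 and 2108 in controls 1 to 3. Every cancer lay below every control, but cancer 2 came close to the controls and cancer 1 stood far below them. The mean was 755 ± 589 FPKM (SD, n = 5) against 2430 ± 587 FPKM (SD, n = 3). The log2 difference was -2.02 (standard error 0.65, adjusted p = 0.045 from limma; two-sided exact permutation test, p = 0.036). This call lay close to the threshold. It was lost without cancer 1, 3 or 5 (adjusted p of 0.061, 0.098 and 0.080 from limma), without control 1, 2 or 3 (0.14, 0.10 and 0.11), and after scaling each library to the same sum (TPM; log2 difference -1.05, adjusted p = 0.11). That scaling moved the median of all genes from -0.04 to 0.81, so that Krt8 stayed below the median gene. A processed copy of the gene, Krt8-ps, is annotated on chromosome 7, and how reads that match both were counted is not given in the sources used here.

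Of the type I members, Krt18 (chromosome 15, 102028216 to 102032026, plus strand), the partner of Krt8, had the smallest difference. It had FPKM of 139, 643, 224, 482 and 331 in cancers 1 to 5 and of 896, 660 and 558 in controls 1 to 3. Cancer 2 lay inside the range of the controls and the other 4 cancers below it. The means were 364 ± 202 FPKM (SD, n = 5) and 705 ± 173 FPKM (SD, n = 3), and the log2 difference of -1.12 (standard error 0.49) did not pass the test (adjusted p = 0.11 from limma; two-sided exact permutation test, p = 0.089). As a share of the library's FPKM sum, Krt18 took 0.0716% ± 0.0302 (SD, n = 5) in the cancers and 0.0748% ± 0.0188 (SD, n = 3) in the controls. Its log2 difference was -0.15 with TPM, where the median of all genes was 0.81, so that Krt18 too stayed below the median gene. The difference was -0.66 when scaled without the most abundant genes and -0.61 with quantile normalization. It did not pass in any of these settings (adjusted p between 0.19 and 0.75 from limma).

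Krt19 (chromosome 11, 100140811 to 100145919, minus strand) varied widely among the cancers. Its FPKM were 13, 1838, 195, 999 and 476 in cancers 1 to 5 and 3178, 2520 and 2401 in controls 1 to 3. All 5 cancers lay below the controls, yet the highest cancer was 141 times the lowest. The mean was 704 ± 735 FPKM (SD, n = 5) against 2700 ± 418 FPKM (SD, n = 3). The log2 difference of -3.16 (standard error 1.45) did not pass the test (adjusted p = 0.12 from limma; two-sided exact permutation test, p = 0.071). Without cancer 1 it was -2.06 (adjusted p = 0.078 from limma). In cancer 1 Krt19 stood at place 4497 of the genes by FPKM, whereas it ranked between place 16 and 25 in the controls.

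Krt20 (chromosome 11, 99428403 to 99438153, minus strand) had FPKM of 0, 175, 13, 51 and 87 in cancers 1 to 5 and of 275, 98 and 115 in controls 1 to 3. It was listed at 0 in cancer 1, and cancer 2 lay within the controls. The log2 difference of -2.51 (standard error 1.57) did not pass the test (adjusted p = 0.23 from limma; two-sided exact permutation test, p = 0.20). Without cancer 1 it was -1.34 (adjusted p = 0.27 from limma).

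Thus 1 of the 5 keratins was higher and 1 was lower at an adjusted p under 0.05, beside 34.5% of all genes tested that were called in either direction, 16.2% higher and 18.3% lower. Cancers and controls were without overlap in 3 of the 5, with Krt7 above and Krt8 and Krt19 below the controls, beside 34.1% of all genes tested (14.4% above and 19.8% below). This held for Krt8 and Krt19 in FPKM but not in TPM, where cancer 2 had 2929 for Krt8 and 3203 for Krt19, within the controls at 2124 to 3252 and 2419 to 3325. Krt7 stayed apart in TPM, at 519.9 to 992 in the cancers and 24.1 to 40.6 in the controls. Neither share sets the family apart from the table as a whole. The median log2 difference of the 5 genes was -2.02, against -0.04 over all genes tested.

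**Figure D1:**
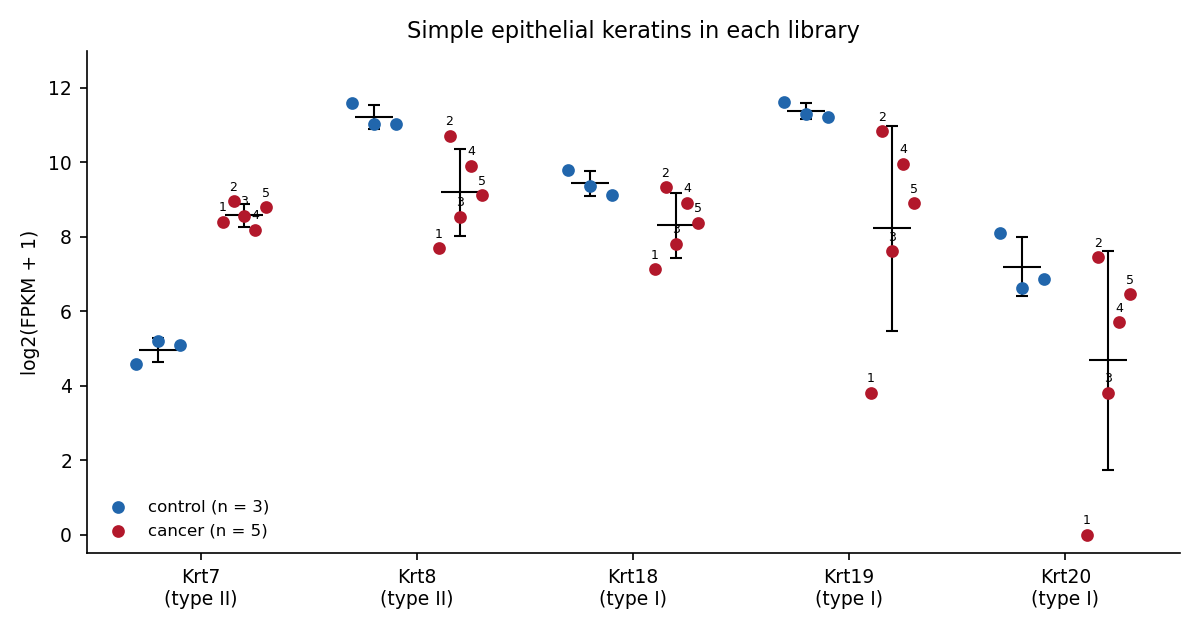
Level of each simple keratin, as log2(FPKM + 1), in the 3 control libraries (blue) and the 5 cancer libraries (red, numbered 1 to 5); bars show the mean ± SD of each group. Krt7 was higher in all 5 cancers with little spread, while Krt19 and Krt20 ran from near the controls in cancer 2 to 13 and 0 FPKM in cancer 1.

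The order of the 5 levels was the same in the 3 controls, with Krt19 highest, then Krt8, Krt18, Krt20 and Krt7. Krt19 was slightly above Krt8 within each control, with Krt8 over Krt19 at 0.978, 0.823 and 0.878 in controls 1 to 3. Across the controls their ranges overlapped, and the gap in their means did not exceed the spread of the controls. The gap from Krt8 to Krt18, from Krt18 to Krt20 and from Krt20 to Krt7 exceeded the spread, with no overlap of ranges. In cancers 2 and 4 Krt19 and Krt8 still led, but Krt7 had passed Krt20. In cancers 1 and 3 Krt7 was the highest of all and Krt19 was the fourth. Cancer 5 lay between these patterns, with Krt8 first, then Krt19 and then Krt7. In the cancers the ranges of neighbouring keratins in the order of means, Krt8, Krt19, Krt7, Krt18 and Krt20, all overlapped.

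The 5 genes together reached 696, 4833, 1183, 2783 and 1893 FPKM in cancers 1 to 5, and 7480, 5389 and 5215 FPKM in the respective controls. The highest cancer lay below the lowest control in FPKM. As a percent of the library's FPKM sum the groups overlapped, at 0.172%, 0.842%, 0.270%, 0.497% and 0.425% in cancers 1 to 5 and 0.783%, 0.607% and 0.525% in the controls, with cancer 2 above all 3 controls. Of this sum Krt7 made up 24.9% ± 16.0 (SD, n = 5) in the cancers and 0.536% ± 0.199 (SD, n = 3) in the controls. The share of Krt19 was 23.5% ± 14.9 against 45.1% ± 2.29, that of Krt8 was 32.0% ± 2.55 against 40.2% ± 1.54, and that of Krt18 was 17.4% ± 2.54 against 11.6% ± 0.827. Of the sum of the 2 simple type II keratins, Krt7 and Krt8, Krt7 accounted for 61.9%, 22.8%, 50.5%, 23.3% and 44.2% in cancers 1 to 5 and for 0.735%, 1.71% and 1.54% in controls 1 to 3. The pair was almost wholly Krt8 in the controls and a mixture of both in the cancers. Squamous type II keratins such as Krt1, Krt4 and Krt5 are not part of this sum.

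**Figure D2:**
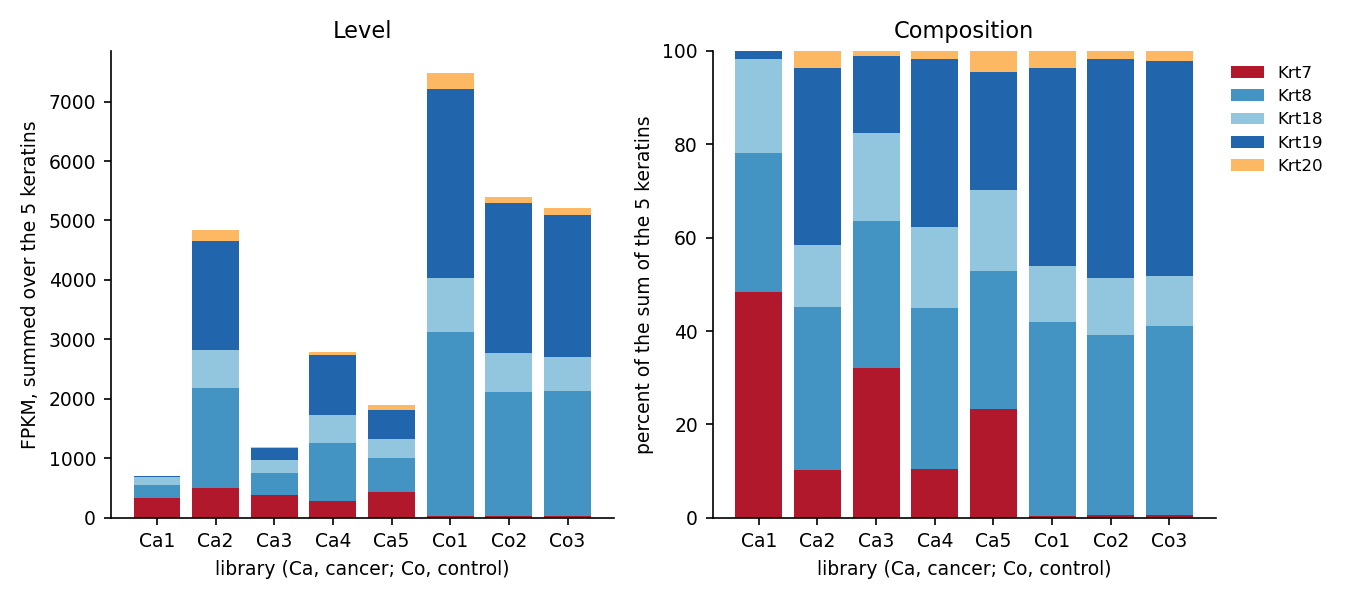
Left, FPKM of the 5 simple keratins stacked by library; right, the same values as percent of their sum in that library (Ca, cancer; Co, control). Krt7, in red, made up 24.9% of the sum on average in the cancers and 0.536% in the controls, and the Krt19 part was smallest in cancer 1.

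The 10 pairs of members were also compared by their ratio within a library, in which a scaling factor of the library cancels. In the test 1 was added to each FPKM, so that this holds less well for low values, as those of Krt19 and Krt20 in cancer 1. On the log2 scale of FPKM + 1, Krt7 rose against Krt8 by 5.64, against Krt18 by 4.74, against Krt19 by 6.78 and against Krt20 by 6.13. In each of these 4 pairs the groups stood apart (two-sided exact permutation test, p = 0.018, adjusted p = 0.036 over the 10 pairs). The pair of Krt7 and Krt20, which includes a value listed at 0, did not pass with a pseudocount of 0.1 (adjusted p = 0.11, exact permutation). As a plain ratio of FPKM, Krt7 to Krt8 was 1.63, 0.295, 1.02, 0.303 and 0.794 in cancers 1 to 5 and 0.0074, 0.0173 and 0.0157 in controls 1 to 3.

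The fifth pair that passed was Krt8 with Krt18. FPKM of Krt8 over Krt18 was 1.49, 2.61, 1.66, 1.99 and 1.68 in cancers 1 to 5 and 3.47, 3.14 and 3.78 in controls 1 to 3. The log2 ratio was lower in the cancers by a difference of -0.90, without overlap (two-sided exact permutation test, p = 0.018, adjusted p = 0.036). Krt8 thus fell relative to its classical partner in all 5 cancers, including cancer 2, where both genes came close to control levels. The adjusted p of this pair rests on a tie, as 5 pairs shared the smallest exact permutation p. The others of these pairs all included Krt7.

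The 5 other pairs did not pass. Krt19 over Krt18 was 0.0935, 2.86, 0.871, 2.07 and 1.44 in cancers 1 to 5 and 3.55, 3.82 and 4.30 in controls 1 to 3, with no overlap. The log2 ratio of Krt18 to Krt19 differed by 2.04, with an adjusted p of 0.12 (two-sided exact permutation test). Differences were 1.14 for Krt8 to Krt19, 0.49 for Krt8 to Krt20, 1.39 for Krt18 to Krt20 and -0.65 for Krt19 to Krt20, with adjusted p between 0.33 and 0.77 (exact permutation). Without cancer 1 the values were 0.41 for Krt8 to Krt19, -0.31 for Krt8 to Krt20, 1.23 for Krt18 to Krt19 and 0.52 for Krt18 to Krt20. Simple type II over simple type I transcripts, (Krt7 + Krt8) over (Krt18 + Krt19 + Krt20), was 3.58, 0.820, 1.74, 0.817 and 1.12 in cancers 1 to 5 and 0.720, 0.644 and 0.696 in controls 1 to 3. Simple type II was in excess in cancers 1, 3 and 5, and simple type I in the remaining libraries, with squamous keratins left out.

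**Figure D3:**
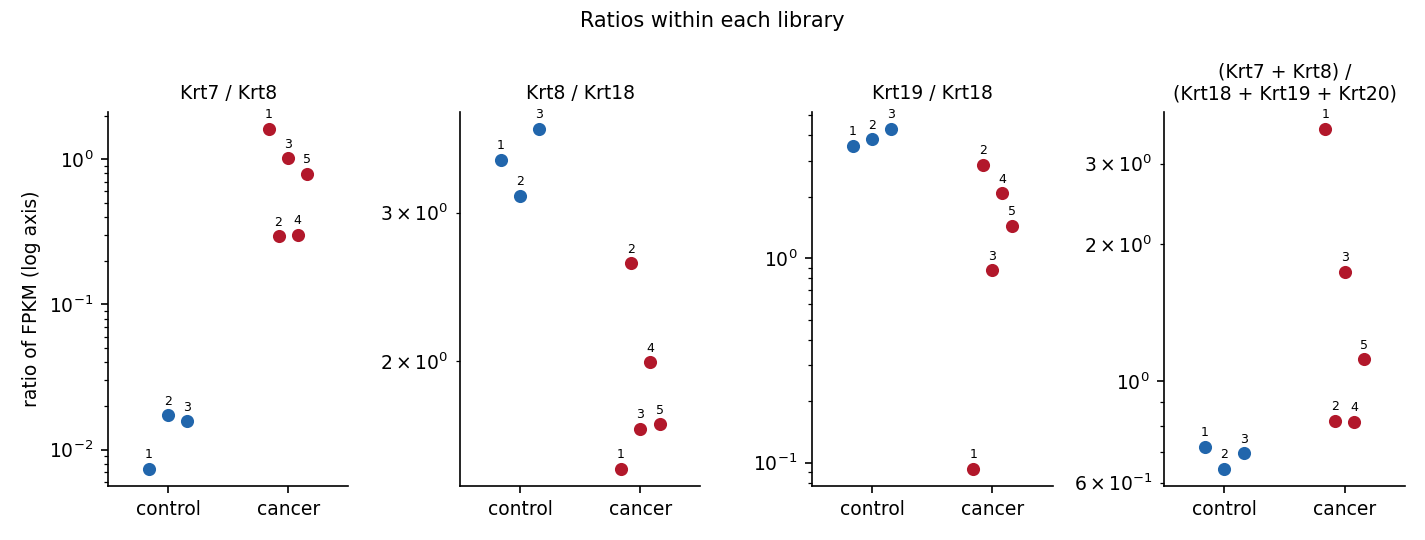
Ratios of FPKM within each library on log axes, each panel with its own range; points are libraries, numbered within the group, in controls (blue, n = 3) and cancers (red, n = 5). Krt7 over Krt8 was higher and Krt8 over Krt18 lower in all 5 cancers than in any control. Cancer 1 stood lowest in Krt19 over Krt18 at 0.0935.

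The cancers differed among themselves in a fixed order for most members. Krt8, Krt18 and Krt19 each ran from high to low through cancers 2, 4, 5, 3 and 1. Krt20 followed the same order except that cancers 4 and 5 changed places, whereas Krt7 was highest in cancer 2 and lowest in cancer 4. Of the 14357 genes tested, 465 (3.24%) had the order of Krt8. The FPKM sum of the libraries had that order too. When each value was divided by its library's sum, Krt8, Krt18 and Krt19 also had this order, which 1.75% of the genes tested had on that scale.

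The same order was shown by the pit cell list, Muc5ac, Gkn1, Gkn2, Tff1 and Dpcr1, which are products of the gastric surface mucous cells. The sum of its FPKM was 691, 66495, 4831, 44701 and 15029 in cancers 1 to 5, compared with 205122, 146698 and 214514 in the controls. The list for parietal cells, which secrete acid, held Atp4a, Atp4b, Gif, Slc26a7 and Kcne2. It summed to 0, 1511, 212, 2633 and 288 in the cancers against 6652 to 12468 in the controls. In mice Gif is made mainly by chief cells, so that this sum is not of parietal cells alone. Gif stood at 0, 520, 36, 434 and 178 FPKM in cancers 1 to 5 and at 2581, 4982 and 3374 in controls 1 to 3. The chief cell list summed to between 19 and 10059 in the cancers and to 43924, 64 and 26921 in controls 1 to 3, where Pgc was listed at 0 in controls 2 and 3. The part of these cells in the levels of Krt8, Krt18, Krt19 and Krt20 was not tested. In cancer 1 all 5 genes of the parietal list and 10 of the 11 squamous keratins were listed at 0, and Krt7, Krt8 and Krt18 were at 337, 207 and 139 FPKM.

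**Figure D4:**
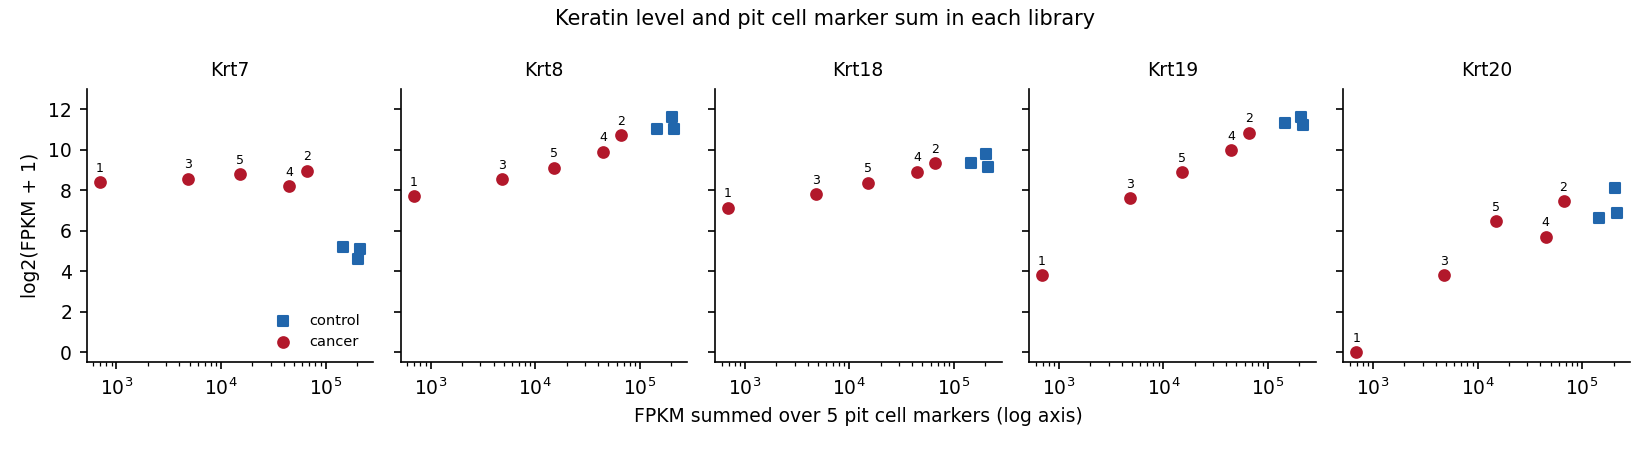
Level of each simple keratin, as log2(FPKM + 1), against the FPKM sum of 5 pit cell markers on a log axis; red points are cancers, numbered 1 to 5, and blue squares are controls. Krt8, Krt18 and Krt19 had the order of the pit cell sum among the 5 cancers, from 691 in cancer 1 to 66495 in cancer 2, and Krt7 did not.

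Markers of other cell types, of which only some can express Krt7, were set beside it. The mesothelial list summed to 1 to 22 FPKM in the cancers against 5 to 20 FPKM in the controls, with Wt1 and Calb2 listed at 0 in all 8 libraries. The list of urothelial umbrella cells summed to no more than 3 FPKM in any library, with Upk2 at 0 throughout, and that of biliary and pancreatic duct cells to 52 to 111 FPKM against 67 to 81 FPKM in the controls, with Onecut1 at 0 throughout. These sums overlapped between the groups. The hepatocyte list summed to 493 to 3453 FPKM in the cancers against 2 to 3 FPKM in the controls, most of it Ahsg at 2386, 647, 812, 492 and 2886 FPKM in cancers 1 to 5. Of its 7 genes, Fga, Fgg, Apoh and Serpina1a were listed at 0 in cancers 1 to 4 and at 65, 93, 21 and 11 FPKM in cancer 5, where Alb stood at 266 FPKM. The neuroendocrine list summed to 7949 to 17864 against 125 to 188 FPKM. The part of these cells in the level of Krt7 was not tested. Fibroblast and smooth muscle sums overlapped between the groups, at 62 to 329 against 72 to 133 FPKM and 36 to 1469 against 314 to 471 FPKM. Leukocyte sums of 12 to 75 against 10 to 11 and endothelial sums of 12 to 38 against 6 to 9 did not overlap, and their part in these results was not tested either.

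The 250 bases before the start of the 3 simple keratins of chromosome 15 are shown, as 2 of them changed in opposite directions and lie in the same keratin cluster. They were read from the RefSeq annotation of GRCm38.p6, the assembly of mm10, 5′ to 3′ on the strand of the gene. Capitals mark GC boxes (GGGCGG, with its reverse CCGCCC) in Krt7 and CACCC boxes (CCACCC, with its reverse GGGTGG) in Krt8.

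Krt7, chr15:101412153-101412402, plus strand: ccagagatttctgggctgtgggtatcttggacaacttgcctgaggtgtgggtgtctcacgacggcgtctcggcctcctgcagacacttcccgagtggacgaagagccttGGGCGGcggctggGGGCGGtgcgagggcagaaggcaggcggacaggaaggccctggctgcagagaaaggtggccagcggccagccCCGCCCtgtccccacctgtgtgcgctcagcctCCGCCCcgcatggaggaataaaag
Krt8, chr15:102004343-102004592, minus strand: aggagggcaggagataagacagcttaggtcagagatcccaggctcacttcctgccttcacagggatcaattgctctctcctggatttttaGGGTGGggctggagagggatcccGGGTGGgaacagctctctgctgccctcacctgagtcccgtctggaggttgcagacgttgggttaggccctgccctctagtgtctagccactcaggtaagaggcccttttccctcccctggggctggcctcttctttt
Krt18, chr15:102027966-102028215, plus strand: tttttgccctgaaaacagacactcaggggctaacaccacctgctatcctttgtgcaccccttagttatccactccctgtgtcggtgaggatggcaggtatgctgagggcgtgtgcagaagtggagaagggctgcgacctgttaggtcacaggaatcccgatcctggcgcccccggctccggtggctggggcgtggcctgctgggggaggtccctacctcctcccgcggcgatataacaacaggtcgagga

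Both strands were searched for 5 motifs, which do not overlap in these windows. Krt7 held 4 GC boxes, at -141, -128, -56 and -24 from the start site, and none of the other motifs. A GC box was found in 32.7% of the 32851 RefSeq promoters of this length. Krt8 held 2 CACCC boxes, at -160 and -137, a motif found in 28.1% of promoters. None of the 5 motifs lay in the Krt18 window. Krt20 held a TATA box (TATAAA, in 12.4% of promoters) at -29 and a CACCC box at -187. The AP-1 motif TGANTCA (6.75% of promoters) and the E2F motif TTTNNCGC (4.28%) were not found in any of the 4 windows. The GC content was 66.0% for Krt7, 58.0% for Krt8, 60.4% for Krt18 and 48.0% for Krt20, beside a median of 52.4%. A match is a match of letters and does not show that a factor was bound.

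Genes next to the members on the chromosome were mostly keratins. Krt80, a type II keratin next to Krt7, fell by 3.02 on the log2 scale (standard error 0.65; limma, adjusted p = 0.012, or 0.051 without control 3), and the gene on the other side, Krt83 in the table and Krt87 in RefSeq, was at 0, 1, 1, 0 and 3 FPKM in cancers 1 to 5 and listed at 0 in the controls. The table places it in 1 locus with Krt81, Krt85 and Krt86. Krt8 and Krt18 lie next to each other, 23.9 kb apart. Krt78, the other neighbour of Krt8, fell by 4.12 (standard error 0.80, adjusted p = 0.0085 from limma). The translation factor gene Eif4b, the other neighbour of Krt18, differed by -0.15 (adjusted p = 0.44 from limma). With TPM its log2 difference turned to 0.82, near the shift of the median gene. Krt19 lay beside Krt15 and Krt9, the latter listed at 0 in all libraries, and Krt20 beside Krt12 and Krt23. Krt23, a type I keratin, fell by 2.16 (standard error 0.43, adjusted p = 0.0092), from 169 to 242 FPKM in the controls to 19 to 73 in the cancers.

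Beyond the simple keratins, 47 further keratin genes were in the table, and 20 of them were high enough to be tested. Of these 20, 1 was higher and 8 were lower in the cancers, with a median log2 difference of -2.01, beside 16.2% higher and 18.3% lower of all genes tested. The gene that was higher was Krt222, named here for that reason, at 1 to 3 FPKM in the cancers and listed at 0 in the controls. Without control 1, 2 or 3 the calls numbered 4, 5 and 4. Among the 11 squamous and basal keratins, 2 fell and none rose, a share near the 18.3% of all genes tested that were called lower, and the median was -2.23. They were Krt10, a keratin of cornified layers, at 2, 4, 149, 261 and 188 FPKM in cancers 1 to 5 against 1161 to 1947 in the controls, and Krt4, a keratin of mucosal squamous layers, at 0, 2, 26, 96 and 89 FPKM against 337 to 725. Their log2 differences were -5.25 and -4.99 (adjusted p = 0.043 and 0.044 from limma). Both calls were lost without cancer 1, 2 or 3 and without any one control (adjusted p between 0.051 and 0.12).

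The other 9 squamous keratins did not pass the test. Krt1, the partner of Krt10, stood at 0, 1, 143, 167 and 192 FPKM in cancers 1 to 5 against 929 to 1676 in the controls (adjusted p = 0.056 from limma), and Krt13, the partner of Krt4, at 0, 10, 97, 494 and 251 against 961 to 1571 (adjusted p = 0.078). The basal keratins Krt5 and Krt14 stood at 574 and 403 FPKM in cancer 4, above all controls, and at 0 and 0 in cancer 1. Differences of Krt5, Krt14, Krt15, Krt16, Krt17, Krt6a and Krt6b ran from -2.88 to -0.57, with adjusted p between 0.21 and 0.82 from limma. Without cancer 4, which held the most of the squamous keratins, Krt15 and Krt13 passed (-2.74 and -5.86, adjusted p = 0.0059 and 0.0495 from limma). The sum of the squamous list, 2, 24, 716, 2570 and 937 FPKM in cancers 1 to 5, did not have the order of the simple keratins: cancer 2, with the highest Krt19, held 24 FPKM of squamous keratins.

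**Figure D5:**
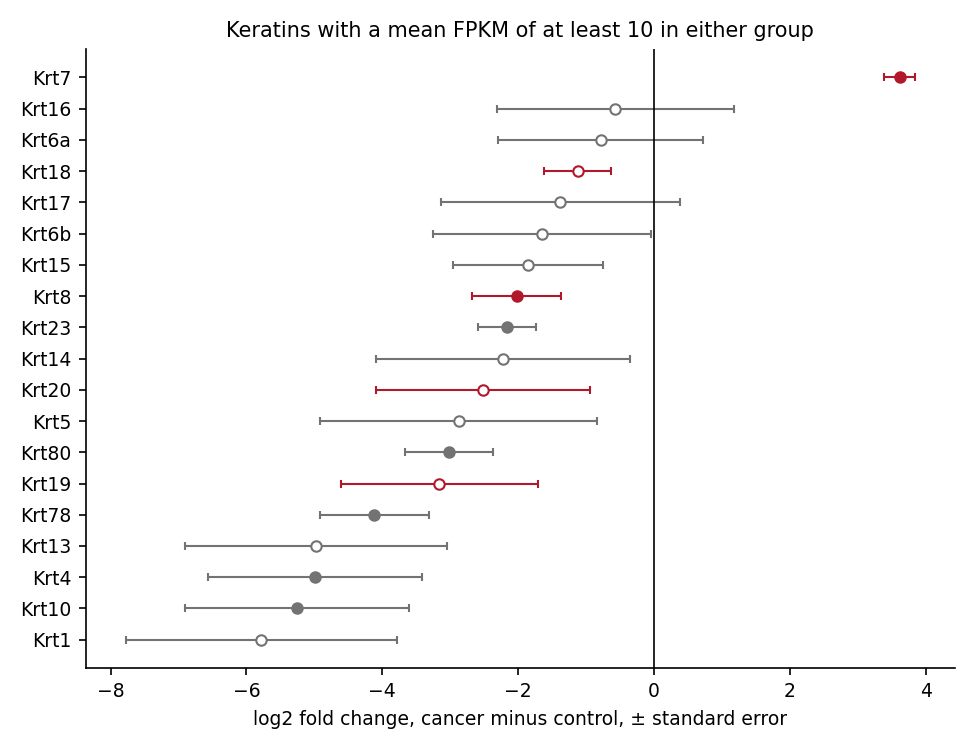
Log2 difference between cancers and controls, with its standard error, for each keratin with a mean of at least 10 FPKM in either group; red marks the 5 simple keratins and filled points those with an adjusted p under 0.05 (limma, 5 cancers and 3 controls). Krt7 at 3.62 is the point to the right of 0, and the other values run from -5.78 for Krt1 to -0.57 for Krt16.

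Of 15 genes for proteins that tie keratin filaments to cell junctions or help them fold, 10 fell, none rose and 5 did not pass, with a median log2 difference of -1.78, beside 18.3% of all genes tested that were called lower. Dsc2 and Dsg2, cadherins of the desmosome, fell by 2.56 and 1.91 (adjusted p = 0.015 and 0.0032 from limma). Desmoplakin, Dsp, which binds keratins to desmosomes, stood at 8, 34, 15, 52 and 45 FPKM in cancers 1 to 5 and at 107, 129 and 155 in controls 1 to 3, a fall of 2.31 (adjusted p = 0.021), and the plakin Evpl fell by 2.03 (adjusted p = 0.0082). Without control 1, 2 or 3, when 1121, 1201 and 1295 of all genes were called lower, the list had 3, 4 and 3 calls, and without cancer 3 it had 5, Dsp being lost in each case (adjusted p between 0.051 and 0.076), and with TPM, which called 528 of all genes lower and 7176 higher, it had 4 lower and 1 higher. Dsc2 was lost without control 1 (adjusted p = 0.066). The squamous keratin sum was also lower, at 2 to 2570 FPKM in the cancers against 3688 to 6247 in the controls. So was the pit cell sum, at 691 to 66495 against 146698 to 214514 FPKM. The part of these cells in the fall of the linkers was not tested.

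Among 13 intermediate filament genes other than keratins, which include 3 nuclear lamins of nearly all cells, 4 were higher, none was lower and 9 did not pass, with a median log2 difference of 0.48, beside 16.2% of all genes tested that were called higher. The neurofilament genes Nefl, Nefm and Ina were listed at 0 in the 3 controls. All 8 neuroendocrine markers were called higher too, with the sums given above, and their part in these values was not tested. Nefm stood at 17, 5, 12, 4 and 14 FPKM in cancers 1 to 5 (adjusted p = 0.0026 from limma), Nefl at 27, 8, 20, 1 and 6 FPKM (adjusted p = 0.019) and Ina at 11, 4, 13, 4 and 8 FPKM (adjusted p = 0.0020). Vimentin, Vim, the filament of mesenchymal cells, stood at 61, 75, 71, 59 and 18 FPKM in the cancers and at 12, 21 and 15 in the controls, a rise of 1.65 (adjusted p = 0.030). Its groups overlapped in cancer 5. Without control 1, 2 or 3 the calls in this list numbered 2, as Nefl and Vim were lost (adjusted p between 0.059 and 0.11), and Vim was also lost without cancer 1, 2, 3 or 4 (adjusted p between 0.054 and 0.070). Vim lay below Krt7 in all 5 cancers and in all 3 controls.

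Among 18 genes of epithelial identity, 4 were higher and 7 lower, with a median of -1.21, beside 16.2% higher and 18.3% lower of all genes tested. Epcam, a general marker of epithelial cells, was among the 4 that were higher. It stood at 314 to 592 FPKM in the cancers and at 159 to 183 in the controls (log2 difference 1.17, adjusted p = 0.0092 from limma). With TPM, which called 7176 of all genes higher and 528 lower, 4 of the list were higher and 2 lower. The claudins, which seal tight junctions, differed in direction. Cldn3 stood at 47, 25, 31, 20 and 64 FPKM in cancers 1 to 5 and at 1 in each control (log2 difference 4.14, adjusted p = 0.00078 from limma), and Cldn7 at 55 to 143 FPKM against 4 to 6 (3.77, adjusted p = 0.00078). Cldn18, the claudin of the stomach, fell by 2.10 (adjusted p = 0.0075), from 521 to 742 FPKM in the controls to 86 to 293 in the cancers. The protease Prss8 fell by 2.40 (adjusted p = 0.039), a call lost without cancer 3 or 5 or any one control (adjusted p between 0.066 and 0.12), with TPM (-1.51, adjusted p = 0.071) and with quantile normalization (-2.13, adjusted p = 0.062). The number of calls in this list was 5, 6 and 6 without control 1, 2 or 3 and 7 without cancer 3.

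Genes whose profile over the 8 libraries was most like that of a member were ranked by the root mean square difference of log2(FPKM + 1), each profile centred on its mean, over 9137 genes with a mean of at least 5 FPKM. For Krt7 these were Mapk8ip2 (0.40), Ngfrap1 (0.41) and Galr1 (0.43). Ngfrap1 stood at 243, 170, 274, 167 and 289 FPKM in cancers 1 to 5 and at 22, 24 and 26 in controls 1 to 3. For Krt8 they were Ppif (0.20), Kcnk10 (0.20) and Esd (0.21), for Krt18 Golm1 (0.13), Idh1 (0.17) and Prr13 (0.18), for Krt19 Tmem54 (0.21), Gjb1 (0.25) and Mgst2 (0.28), and for Krt20 Lgals4 (0.44), Gcnt3 (0.49) and Tmem54 (0.59). Tmem54 was thus near both Krt19 and Krt20, whose own difference was 0.65. Between Krt8 and Krt18 it was 0.50, and Krt7 was 3.79 from Krt19.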

How the data were processed

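RNA of 5 SCJ cancers and 3 control SCJ samples (total RNA, polyA+, directional libraries) was sequenced. Per the labels' processing notes, the authors used cutadapt 1.8, TopHat2 2.0.13 and Cuffnorm 2.2.1 with mm10, and their methods name cuffquant and UCSC genes. The option by which Cuffnorm scaled the libraries is not given in the sources used here. The deposited values are FPKM rounded to whole numbers and were therefore treated as a score, not as read counts; 100% of them were whole. Depth is unknown, so no counting interval or limit of detection was computed, and rounding leaves few steps at low values. The locus starts in the table count from 0 and 1 was added.

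The 14357 of 23361 genes that reached an FPKM of 1 in 3 or more samples were compared as log2(FPKM + 1) in R 4.3.3 by limma 3.58.1 (lmFit and trended eBayes), Benjamini-Hochberg adjustment over these genes and a threshold of 0.05. A fold on this scale understates changes of low genes. Members and their 10 pair ratios were also compared by exact permutation over the 56 splits of 5 and 3 samples. On simulated data for 14357 genes, 200 genes with a mean log2(FPKM + 1) above that of 10 FPKM were shifted by a log2 value of 3. Of these 181 were called, all in the right direction, and 22 unchanged genes were called. The simulation gave both groups the same spread, whereas Krt19 had a log2 SD of 2.75 in the cancers and 0.22 in the controls. Its rate of calls therefore does not describe such genes. Named genes were the 5 members, up to 4 called genes of each list with the largest difference, keratins with a mean of at least 10 FPKM, neighbours from RefSeq, the 3 most similar profiles per member, and markers of the cell type lists. All 128 list entries were found, 2 under an older symbol. The members and lists were chosen with earlier results of these data known. Alternatives were a pseudocount of 0.1 or 5, no filter, a mean FPKM of at least 5, TPM, scaling without the 31 most abundant genes, quantile normalization, no trend, a replicate block and leaving out each sample. Krt19 had no entry in the promoter table.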

Additional observations from a re-analysis of the deposited data

Results flagged for a closer look

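Among the 5 cancers, the log2 ratio of Krt8 to Krt19 had 1 library far from the others: the gap from cancer 1 to its nearest neighbour was 0.737 of the whole range. FPKM of Krt8 over Krt19 was 15.9 in cancer 1, where Krt8 stood at 207 and Krt19 at 13 FPKM, and between 0.915 and 1.91 in the other cancers. Of 15 levels and ratios examined in this way 1 stood out, and chance sets apart about 1 in 20. The difference between cancers and controls in this ratio was 1.14 on the log2 scale with all cancers and 0.41 without cancer 1.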

How the results depend on the processing

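Krt7 kept its direction and its call in all 17 alternatives tried (log2 difference 3.43 to 3.75 when a sample was left out, 4.60 with TPM, 3.68 with a replicate block). Without a sample Krt19 ran from -3.82 to -2.06 and Krt20 from -3.21 to -1.34. The Krt8 call was the one member call that changed, in 8 of them: -1.05 with TPM (adjusted p = 0.11 from limma), -2.23 with the block (adjusted p = 0.18), and -2.40 to -1.65 when a sample was left out (adjusted p 0.016 to 0.14). The number of genes called, 4948, became 7704 with TPM (7176 higher, 528 lower), 1534 with the block and 2490 to 5252 without a sample. Calls among squamous keratins were 0 with a pseudocount of 0.1, with quantile normalization and with the block, 1 with TPM, 4 with a pseudocount of 5, and 0 to 4 without a sample. Linkers gave 5 with TPM, 3 with the block and 3 to 11 without a sample; other intermediate filaments 7 with TPM and 2 to 4; epithelial identity 6, 3 with the block and 5 to 13; other keratins 4 with the block and 4 to 11.

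Among the pair ratios, leaving out a sample gave 5.27 to 5.93 for Krt7 to Krt8, 4.37 to 4.99 for Krt7 to Krt18, 5.72 to 7.34 for Krt7 to Krt19, 5.01 to 6.73 for Krt7 to Krt20 and -1.03 to -0.82 for Krt8 to Krt18, always in the same direction. With fewer samples, even 5 pairs at the smallest exact permutation p gave an adjusted p over the 10 pairs of 0.057 without a cancer and 0.095 without a control, so these p-values say nothing on stability. Krt7 to Krt20 was 6.86 with a pseudocount of 0.1 (adjusted p = 0.11, exact permutation), since Krt20 was listed at 0 in cancer 1. Krt8 to Krt20 ran from -0.31, without cancer 1, to 0.95, and Krt19 to Krt20 reversed to 0.014 with a pseudocount of 0.1. Krt16 reversed to 0.080 with TPM, to 0.33 and 0.081 without cancer 1 or 2, and to 0.72 without control 3, within a range of -1.36 to 0.72. Eif4b reversed to 0.82 with TPM, 0.30 when scaled without the most abundant genes and 0.33 with quantile normalization, where the median of all genes was 0.81, 0.34 and 0.0065.

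Same-numbered cancers and controls did not deviate together (correlations of -0.021, -0.19 and -0.10 over genes), so the numbers were taken as names. With the number as a block, Dsc2, Dsg2, Dsp, Cldn18, Prss8, Krt4, Krt10 and Krt23 were not called (adjusted p 0.050 to 0.12 from limma). Pair differences were 5.92 (Krt7 to Krt8), 5.03 (Krt7 to Krt18), 7.65 (Krt7 to Krt19), 7.13 (Krt7 to Krt20) and -0.89 (Krt8 to Krt18), over 3 pairs, where an exact sign-flip test cannot go below p = 0.25. Depth is unknown, so the precision of low values such as Krt20 in cancers 1 and 3 is limited by the rounding to whole FPKM.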
